A study of Homo sapiens with 6 samples.

Results

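The 35 genes described here encode aminoacyl-tRNA synthetases, the enzymes that join each amino acid to its transfer RNA. They were chosen by name, 19 for cytosolic enzymes and 16 for mitochondrial ones, out of 78932 gene rows in the count table, and all 35 had enough reads to be tested. The cells are labelled HCC1937, a breast cancer cell line with a BRCA1 mutation that expresses neither hormone receptor nor amplified HER2. Poly(A)-selected RNA was sequenced from 3 control libraries and from 3 libraries of cells given 8 nM docetaxel, a taxane that stabilises microtubules, for 24 h. The labels call the 3 libraries of a group biological replicates and do not say what the control cells received. They do not name separate cultures or days, so a p-value here reflects only how far these libraries vary, which may be technical.

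Each synthetase first activates its amino acid with ATP and then transfers it to the matching transfer RNA, which the ribosome uses to read codons. Cytosolic enzymes serve the translation of nuclear messages, and a second, nuclear-encoded set is imported into mitochondria to serve the messages of the mitochondrial genome. GARS1 and KARS1 make both forms from a single gene, QARS1 has no mitochondrial partner because mitochondria make glutaminyl-tRNA through EARS2 and an amidotransferase, and EPRS1 fuses the glutamate and proline enzymes in 1 protein. EPRS1, IARS1, LARS1, MARS1, QARS1, RARS1 and KARS1 assemble with scaffold proteins into the cytosolic multisynthetase complex. When amino acids run short, the kinase GCN2 senses uncharged transfer RNA and translation of the transcription factor ATF4 rises, and many cytosolic synthetase genes are known ATF4 targets.

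Library totals ran from 38622062 to 41675186 counts, and the 35 genes held between 0.582% and 0.607% of them. Of 10 epithelial markers, 4 had enough reads to be tested. KRT8 and KRT18 averaged 1809 and 632 CPM (counts scaled to a common library size and composition) in control, while the defining epithelial genes EPCAM and CDH1 were at 0.055 and 0.645 CPM and KRT5, KRT14 and KRT19 at 0.034, 0.031 and 0.065 CPM in control. The summed epithelial markers were 2430 to 2500 CPM in control and 2780 to 2810 CPM with docetaxel, the mesenchymal markers 381 to 392 and 355 to 369 CPM, and the endothelial and fibroblast markers 143 to 149 and 145 to 151 CPM. Most of the mesenchymal sum was VIM, at 368 CPM in control, followed by ZEB1 at 11.7 CPM, while CDH2 was at 0.016 CPM. Most of the endothelial and fibroblast sum was COL1A1, at 137 CPM in control, followed by PDGFRB at 4.37 CPM. PECAM1, CDH5, VWF and COL1A2 were at 1.66, 0.414, 0.408 and 0.058 CPM in control. With KRT8 and KRT18 high but EPCAM and CDH1 low, these markers do not settle the identity of the cells. The name of the line rests on its label. The part of these marker levels in the results below was not tested. Haematopoietic markers summed to at most 0.561 CPM in any library.

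Stretches of promoter sequence are shown first. Some hold letters that match an ATF4-type element, and another is a start region shared by a cytosolic and a mitochondrial gene. Windows from 250 bases before to 50 bases after a RefSeq start (GRCh38.p14) were at hand for 30 of the 35 genes, not for YARS1, LARS1, VARS1, AARS2 and VARS2. The letters TGATGNAA, the core of the C/EBP-ATF response element, were searched on both strands. They occurred in 7 of 16 cytosolic genes and 1 of 14 mitochondrial genes with a window, against 4.46% of 27305 genes. Below, 30 bases around each match are given 5′ to 3′ on the gene's strand, with the match in capitals.
AARS1, chr16:70289675-70289704, minus strand: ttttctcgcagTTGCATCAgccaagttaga
CARS1, chr11:3057407-3057436, minus strand: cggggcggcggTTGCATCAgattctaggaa
GARS1, chr7:30594834-30594863, plus strand: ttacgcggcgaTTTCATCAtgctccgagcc
IARS1, chr9:92293692-92293721, minus strand: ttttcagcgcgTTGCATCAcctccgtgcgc
MARS1, chr12:57488053-57488082, plus strand: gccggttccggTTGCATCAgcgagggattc
NARS1, chr18:57621804-57621833, minus strand: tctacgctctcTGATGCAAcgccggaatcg
TARS1, chr5:33440956-33440985, plus strand: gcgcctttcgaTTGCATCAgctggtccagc
YARS2, chr12:32756076-32756105, minus strand: atccacactgcTGATGGAAaaattaagttt
In 6 of the 7 cytosolic genes the 8 matched bases were the same, TTGCATCA or its reverse complement TGATGCAA. GARS1 differed from these, and so did YARS2, the mitochondrial tyrosine enzyme. The match began 187 bases upstream of the start in AARS1 and 197 in YARS2, and 14 and 2 bases downstream in NARS1 and TARS1. A match describes the letters only and is not evidence of binding.

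HARS1 and HARS2, the cytosolic and mitochondrial histidine enzymes, lie head to head on chromosome 5 and are read outwards from neighbouring starts. The 86 bases from the HARS1 start to the HARS2 start, on the plus strand of chr5:140691370-140691455, are shown because both genes share them. Capitals mark CCGGAA or its reverse complement TTCCGG, the core letters that ETS-family factors recognise.
HARS1 to HARS2 starts: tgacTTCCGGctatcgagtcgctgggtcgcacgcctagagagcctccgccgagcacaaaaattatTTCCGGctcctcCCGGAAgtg
The core occurred 3 times in this stretch. Over whole windows it was found in 12 of 16 cytosolic and 8 of 14 mitochondrial synthetase genes, against 20.1% of 27305 genes. In GENCODE the exons of HARS1 and HARS2 also overlap by 437 bases on opposite strands, so without a stated strand setting reads from this overlap cannot be told apart.

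The cytosolic genes were expressed above the mitochondrial ones. Per kilobase of principal transcript, the scale used to compare genes, the cytosolic genes ran from 28.3 to 198 CPM per kb with a median of 76.5, and the mitochondrial genes from 0.264 to 78.5 CPM per kb with a median of 12.6. FARSA, the catalytic α subunit of the phenylalanine enzyme, was highest at 198 CPM per kb, followed by SARS1 (serine) at 169, AARS1 (alanine) at 140, KARS1 (lysine) at 136 and TARS1 (threonine) at 133. FARSA was above SARS1 in all 6 libraries, though their ranges over libraries overlapped. AARS1, KARS1 and TARS1 overlapped and changed order between libraries, with AARS1 above KARS1, and KARS1 above TARS1, in 4 of 6 each. GARS1 (glycine), MARS1 (methionine) and YARS1 (tyrosine) followed at 103, 95.2 and 90.5 CPM per kb. FARSB, the β subunit that joins FARSA in a heterotetramer, was the lowest cytosolic gene on this scale at 28.3 CPM per kb.

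Of the mitochondrial genes 4 were above the lowest cytosolic gene: CARS2 (cysteine) at 78.5, IARS2 (isoleucine) at 62.0, TARS2 (threonine) at 33.0 and YARS2 (tyrosine) at 28.4 CPM per kb. CARS2 exceeded its cytosolic partner CARS1, which was at 46.2 CPM per kb, and in the other 14 of 15 pairs that share an amino acid the cytosolic gene was higher. The lowest were PARS2 (proline), SARS2 (serine) and VARS2 (valine), at 3.82, 1.37 and 0.264 CPM per kb. SARS2 had 93 to 139 reads per library and VARS2 30 to 71. In GENCODE, SARS2 shares 46.2% of its exon bases with another gene on its own strand and VARS2 22.0% with GTF2H4. The part of this overlap in the low counts was not tested. Dividing instead by the deposited length of all exons merged kept the order in outline (Spearman's rho = 0.88 over 35 genes, a description) but moved single genes, such as GARS1 from rank 6 to rank 17 and CARS2 from 9 to 19.5. On that length HARS1, LARS1 and CARS1, at 7.74, 9.2 and 12.4 CPM per kb, were below FARSB at 14.1, and the cytosolic gene was higher in 12 of 15 pairs, with HARS1 below HARS2 and IARS1 below IARS2 as well.

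**Figure D1:**
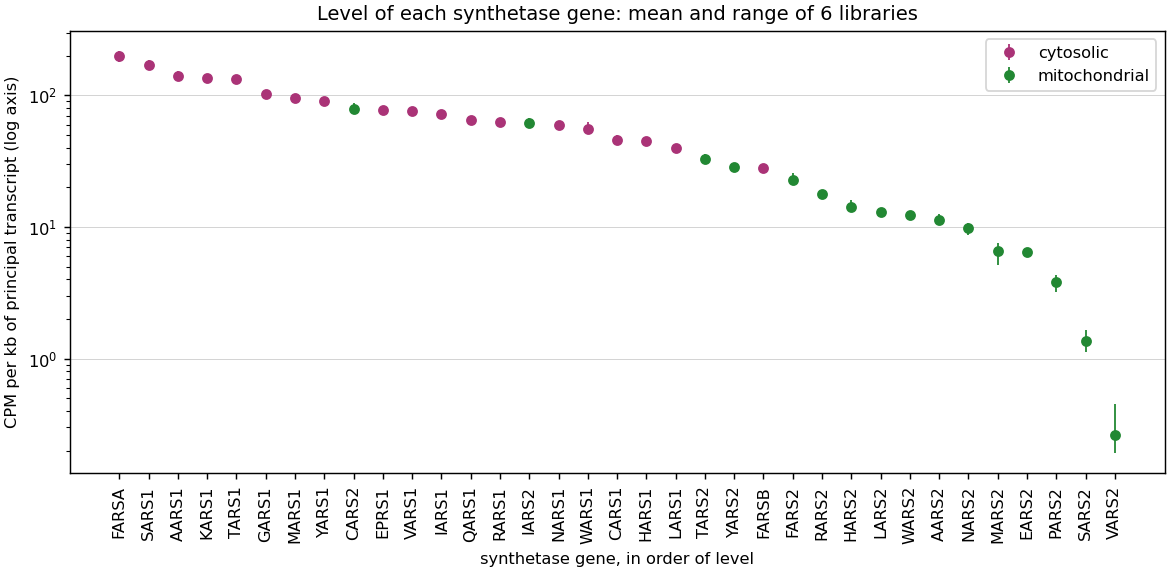
Mean level of each of the 35 synthetase genes in CPM per kilobase of principal transcript (log axis), with bars for the lowest and highest of the 6 libraries. FARSA stands first at 198 and VARS2 last at 0.264, and 4 mitochondrial genes, CARS2, IARS2, TARS2 and YARS2, lie above FARSB, the lowest cytosolic one.

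Docetaxel was then compared with control, which asks how the drug changed these genes. In total 6 cytosolic genes, AARS1, FARSA, HARS1, SARS1, VARS1 and WARS1, rose to between 1.12-fold and 1.14-fold of control, and no cytosolic gene fell. Among mitochondrial genes CARS2 rose by 0.19 and TARS2 by 0.15 on the log2 scale, and IARS2 fell by 0.16. These calls are at an adjusted p under 0.05 by edgeR's quasi-likelihood test over all 18040 genes tested, of which 9.14% were called higher and 7.82% lower (17.0% in all). With no correction for composition there were 1096 higher and 1866 lower, against 1649 and 1410, so the share of calls that were higher went from 53.9% to 37%. Thus 6 of 19 cytosolic genes were higher and 0 lower, and 2 of 16 mitochondrial genes were higher and 1 lower. The same counts were obtained with DESeq2 and limma-voom, and 0 cytosolic genes were lower at an unadjusted p under 0.05. The median log2 fold change was 0.07 for the cytosolic genes and 0.08 for the mitochondrial genes, beside 0.0085 over all genes tested. Without docetaxel replicate 1, 2 or control replicate 2 the mitochondrial median was 0.00083, 0.022 and 0.047, and without docetaxel replicate 2 the cytosolic median was 0.043. Library-size scaling gave medians of 0.03 for the cytosolic and 0.04 for the mitochondrial genes. In a bulk sample a change in the RNA per cell cannot be told apart from a change in the make-up of the cells.

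These changes followed the GC content of the transcripts, as changes across the whole table did. When all tested genes were divided into 5 equal bins of GC content, the median log2 fold change climbed from -0.19 in the lowest bin to 0.18 in the highest. Of the 9 cytosolic genes with at least 50% GC, 5 rose (median log2 fold change 0.16), and of the 10 below 50%, 1 rose, HARS1 (median 0.01). Of the 9 mitochondrial genes with at least 50% GC, 2 rose, and of the 7 below it, 0 rose and IARS2 fell. From the lowest bin to the highest, 0.183%, 0.761%, 3.65%, 13.6% and 31.6% of all genes were called higher. The shares called lower were 28.8%, 10.1%, 2.86%, 0.579% and 0.122%. The upper 2 bins began at 51.9% and 58.3% GC. Across the 35 genes, which share the same 6 libraries, the log2 fold change rose with GC content, described by a Spearman coefficient of 0.76 and a Pearson coefficient of 0.74. A second fit carried offsets that follow each library's dependence on GC content and length. Such offsets also remove any effect of docetaxel that runs with GC content or length. A technical and a drug-related trend cannot be told apart here, so a call lost with the offsets is not shown to be technical. With these offsets 2.31% of 16421 genes were called higher and 1.88% lower, and among the synthetases HARS1, SARS1, EPRS1 and RARS1 were higher and 0 of 35 lower by edgeR (1 of them had an unadjusted p under 0.05). The median log2 fold change was then 0.08 for the cytosolic and 0.03 for the mitochondrial genes. The sign of the log2 fold change turned with the offsets in 7 of 19 cytosolic and 5 of 16 mitochondrial genes, and of these 12 VARS1 was the one called without them.

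**Figure D2:**
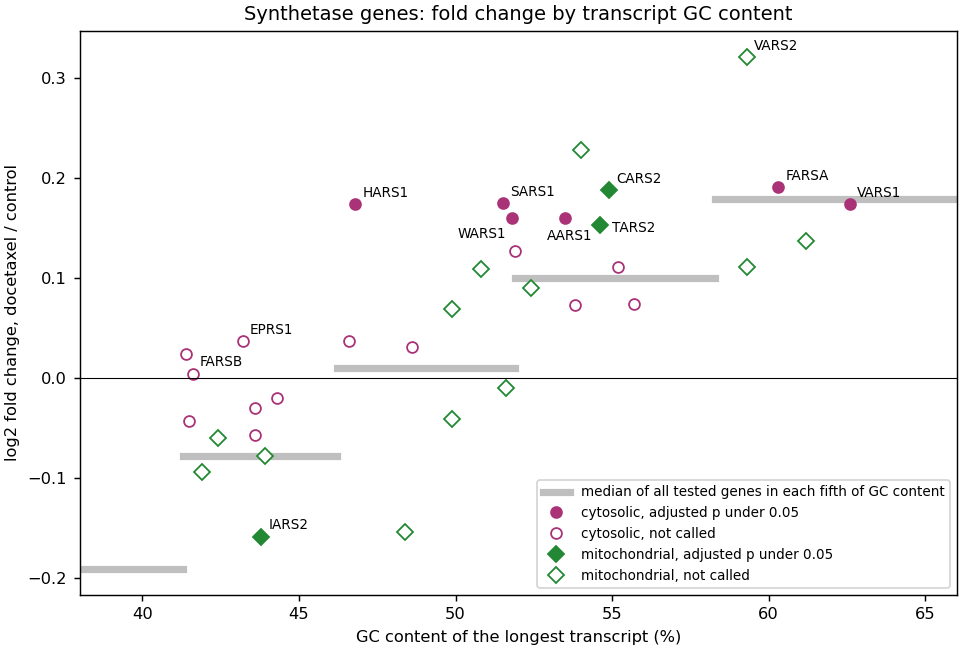
Log2 fold change of each synthetase gene (docetaxel over control) against the GC content of its longest transcript in percent. Grey bars give the median of all tested genes in each of 5 bins of GC content, rising from -0.19 to 0.18, and filled symbols mark genes with an adjusted p under 0.05. Of the filled symbols above 0, HARS1, at 46.8% GC, is the one below 50% GC.

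HARS1 (ENSG00000170445, GRCh38 chromosome 5, 140673904 to 140691862, minus strand) charges histidine transfer RNA. It measured 106, 101 and 103 CPM in control replicates 1 to 3 and 113, 118 and 118 CPM in docetaxel replicates 1 to 3. All docetaxel libraries were above all control libraries. The mean went from 103 ± 2.5 to 116 ± 3.0 CPM (SD over 3 libraries each), a fitted log2 difference of 0.17 with SE 0.05 (adjusted p = 0.0083 by edgeR), and with the offsets it was 0.24 (edgeR adjusted p = 0.0014). Without docetaxel replicate 3 the call was lost (edgeR adjusted p = 0.060). HARS2, its head-to-head neighbour (ENSG00000112855, chromosome 5, 140691426 to 140699318, plus strand), measured 35.6, 34.0 and 34.99 CPM in control and 39.8, 35.3 and 34.6 CPM with docetaxel. Its groups overlapped, with docetaxel replicate 1 alone above the controls, and its log2 fold change of 0.07 had a 95% confidence interval from -0.07 to 0.21 (edgeR adjusted p = 0.59). The log2 ratio of HARS1 to HARS2 reads was 1.57, 1.57 and 1.55 in control and 1.5, 1.74 and 1.77 with docetaxel, so the groups overlapped.

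SARS1 (ENSG00000031698, chromosome 1, 109213918 to 109238169, plus strand) charges serine transfer RNA, which is also the start of selenocysteine synthesis. It was at 293, 294 and 295 CPM in control and 314, 343 and 339 CPM with docetaxel. The control libraries lay within 3 CPM of each other and every docetaxel library was above them. The fitted log2 difference was 0.18 with SE 0.04 (adjusted p = 0.0029 by edgeR), and 0.12 with the offsets (edgeR adjusted p = 0.047), where adding the replicate block ended the call (0.084). SARS2, its mitochondrial partner, was at 2.36, 2.32 and 3.37 CPM in control and 2.44, 3.30 and 3.11 CPM with docetaxel, overlapping groups with a confidence interval from -0.31 to 0.58.

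FARSA (ENSG00000179115, chromosome 19, 12922479 to 12934037, minus strand) had the largest rise of the cytosolic genes. Its values were 341, 324 and 340.3 CPM in control and 373, 391 and 383 CPM with docetaxel, with all docetaxel libraries above. The fitted log2 difference was 0.19 with SE 0.04 (adjusted p = 0.00097 by edgeR). FARSB (ENSG00000116120, chromosome 2, 222570536 to 222656337, minus strand), its partner subunit, was at 93.3, 101 and 91.5 CPM in control and 90.2, 99.7 and 96.9 CPM with docetaxel. These overlapped, with a log2 fold change of 0.0044 and an interval from -0.10 to 0.11. The log2 ratio of FARSA to FARSB reads, which no scaling of libraries can change, went from 1.81 ± 0.12 to 2.00 ± 0.04 (SD, n = 3 each), and the 3 docetaxel ratios were all above the control ratios (an exact permutation test, two-sided, gave p = 0.1, the smallest possible for 3 against 3). FARSA transcripts have 60.3% GC and FARSB transcripts 41.6%. With the offsets the order of the 2 changes turned, with 0.03 for FARSA (edgeR adjusted p = 0.75) and 0.13 for FARSB (0.11). FARS2, the single-chain mitochondrial phenylalanine enzyme, was at 37.6, 36.3 and 38.1 CPM in control and 37.0, 43.7 and 38.5 CPM with docetaxel, and its groups overlapped.

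VARS1 (ENSG00000204394, chromosome 6, 31777518 to 31795953, minus strand) charges valine transfer RNA and binds elongation factor 1. It was at 308, 302 and 320 CPM in control and 351, 344 and 353 CPM with docetaxel. No docetaxel library fell in the control range, and the fitted log2 difference was 0.17 with SE 0.04 (adjusted p = 0.0021 by edgeR). VARS1 had the highest GC content of the 35, 62.6%, and with the offsets its log2 fold change was -0.0093 (edgeR adjusted p = 0.94). VARS2, the mitochondrial valine gene, was at 0.963, 0.892 and 1.02 CPM in control and 1.84, 0.970 and 0.776 CPM with docetaxel. Without docetaxel replicate 1, the highest library, its log2 fold change was -0.15. The interval over all 6 libraries, from -0.40 to 1.05, shows that the read number allows no statement on a change of the size seen in VARS1.

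AARS1 (ENSG00000090861, chromosome 16, 70252295 to 70289543, minus strand), the alanine enzyme, was at 467, 449 and 460 CPM in control and 495, 528 and 514 CPM with docetaxel. Again the groups did not overlap. The fitted log2 difference was 0.16 with SE 0.04 (adjusted p = 0.0037 by edgeR), and 0.10 with the offsets (edgeR adjusted p = 0.068). AARS2, the mitochondrial alanine gene, was at 43.7, 40.5 and 43.0 CPM in control and 44.2, 44.8 and 48.5 CPM with docetaxel, also without overlap, but its log2 fold change of 0.11 did not pass (edgeR adjusted p = 0.27). With the offsets AARS2 was at -0.04.

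WARS1 (ENSG00000140105, chromosome 14, 100333788 to 100376805, minus strand) charges tryptophan transfer RNA and is known as an interferon-inducible gene. It was at 157, 162 and 171 CPM in control and 176, 176 and 195 CPM with docetaxel. Docetaxel replicate 3 was the highest library and the groups did not overlap. The fitted log2 difference was 0.16 with SE 0.05 (adjusted p = 0.015 by edgeR). WARS1 was the cytosolic call lost most often, in 6 of 16 alternatives: with the offsets, with and without the block (edgeR adjusted p of 0.16 in both), with library-size scaling (0.067), and without control replicate 1 (0.11), control replicate 2 (0.057) or docetaxel replicate 3 (0.21). WARS2, the mitochondrial tryptophan gene, was at 34.7, 36.3 and 34.3 CPM in control and 33.1, 32.2 and 35.7 CPM with docetaxel. The log2 ratio of WARS1 to WARS2 reads was 2.22 ± 0.09 in control and 2.44 ± 0.02 with docetaxel (SD, n = 3 each) and did not overlap between groups (exact permutation p = 0.1).

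**Figure D3:**
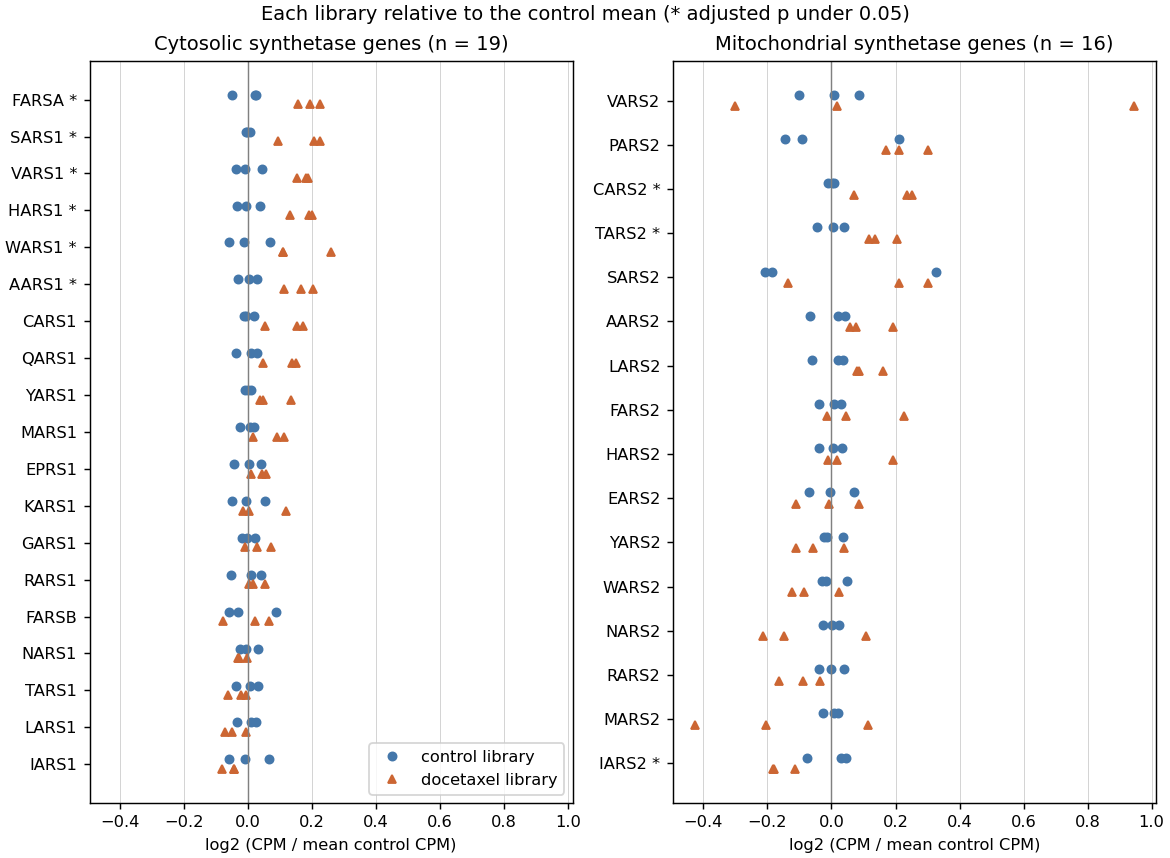
Each library's CPM as the log2 ratio to the mean of the 3 control libraries, for 19 cytosolic (left) and 16 mitochondrial genes (right), ordered by fitted fold change, with circles for control and triangles for docetaxel. Triangles lie to the right of all circles for the 6 starred cytosolic genes, and docetaxel replicate 1 of VARS2 is the farthest point.

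The remaining 13 cytosolic genes did not pass the test, with log2 fold changes from -0.06 for IARS1 to 0.13 for CARS1 and interval bounds that all lay between -0.14 and 0.22. CARS1, the cysteine enzyme, was at 120.2, 118 and 118 CPM in control and 123, 134 and 132 CPM with docetaxel, without overlap (edgeR adjusted p = 0.054). TARS1, the threonine enzyme, was at 563, 590.4 and 581 CPM in control and 554, 576 and 569.5 CPM with docetaxel, overlapping and at a log2 fold change of -0.03. The genes that serve both compartments were not called. KARS1 was at 261, 279.8 and 269 CPM in control and 267, 270.4 and 293 CPM with docetaxel. GARS1 was at 264, 267 and 271 against 266, 273 and 281 CPM. Their log2 fold changes were 0.04 (interval from -0.05 to 0.12) and 0.03 (-0.05 to 0.11). With the offsets they were 0.06 and 0.08, with upper bounds of 0.137 and 0.158. MARS1, the methionine enzyme, was at 273, 271 and 265 CPM in control and 272, 287 and 291 CPM with docetaxel, a log2 fold change of 0.07 with an interval from -0.0098 to 0.16.

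By membership, 0 of the 7 enzymes of the multisynthetase complex were called by edgeR, DESeq2 or limma-voom, with 1, QARS1, higher at an unadjusted p under 0.05. Of the 12 cytosolic genes outside the complex 6 rose. Over all genes tested 9.14% were called higher, and 2.31% with the offsets. The medians were 0.04 and 0.14 on the log2 scale, and the difference between these subsets was not tested. The median GC content was 43.6% in the complex and 51.6% outside it. With the offsets the medians were 0.06 and 0.08, and 2 genes were called in each subset: EPRS1 and RARS1 in the complex, HARS1 and SARS1 outside it. EPRS1 was at 373, 395 and 385 CPM in control and 387, 399.8 and 397 CPM with docetaxel, so its call rests on the offsets: its log2 fold change was 0.04 without them (edgeR adjusted p = 0.60) and 0.13 with them (0.021). RARS1, the arginine enzyme, went the same way, from 0.02 (edgeR adjusted p = 0.79) to 0.13 (0.044). By enzyme class, which reflects 2 unrelated folds of the catalytic domain, 2 of 9 class I and 4 of 9 class II cytosolic genes rose. EPRS1 holds both and is not counted here. The median log2 fold changes ran the other way, at 0.07 for class I and 0.04 for class II. With the offsets the medians were 0.06 and 0.08, and 1 and 2 genes were called higher. The difference between the classes was not tested.

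Of the 7 cytosolic genes with the letters TGATGNAA in the promoter window, described above, 1 rose, AARS1. Of the 9 with a window but no match 4 rose, FARSA, HARS1, SARS1 and WARS1. The median log2 fold changes were 0.03 and 0.11, and 0.06 and 0.12 with the offsets. Median transcript GC content was 48.6% with the letters and 46.8% without. These are counts over few genes with no test, and 9.14% of all genes tested were called higher.

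**Figure D4:**
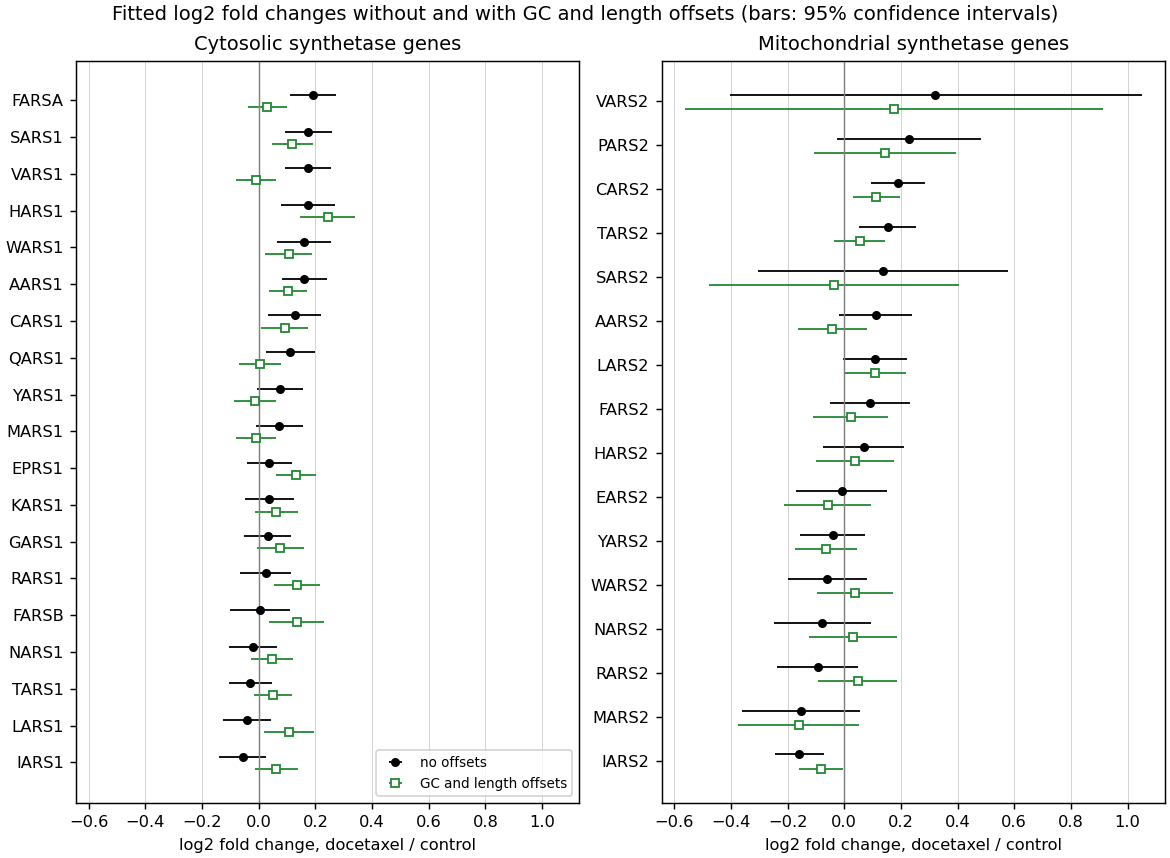
Fitted log2 fold changes of the 35 synthetase genes with 95% confidence intervals, without offsets (black circles) and with GC and length offsets (open green squares). FARSA and VARS1 move from 0.19 and 0.17 to 0.03 and -0.0093, HARS1 goes up from 0.17 to 0.24, and EPRS1 goes up from 0.04 to 0.13.

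CARS2 (ENSG00000134905, chromosome 13, 110641412 to 110713603, minus strand), the mitochondrial cysteine enzyme, is also known to make cysteine persulfides. It was at 137, 139 and 138 CPM in control and 145, 164 and 163 CPM with docetaxel. All docetaxel libraries were higher, replicate 1 by the least, and the fitted log2 difference was 0.19 with SE 0.05 (adjusted p = 0.0046 by edgeR). Without docetaxel replicate 2 or 3 the call was lost (edgeR adjusted p of 0.058 and 0.062), as it was with the offsets (0.12, log2 fold change 0.11).

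TARS2 (ENSG00000143374, chromosome 1, 150487364 to 150507609, plus strand), the mitochondrial threonine enzyme, was at 87.8, 82.7 and 85.6 CPM in control and 92.6, 98.4 and 93.8 CPM with docetaxel. The groups did not overlap and the fitted log2 difference was 0.15 with SE 0.05 (adjusted p = 0.029 by edgeR). The call was lost in 9 of 16 alternatives, among them the offsets (edgeR adjusted p = 0.62) and those without control replicate 2 (0.11), control replicate 3 (0.081), docetaxel replicate 2 (0.18) or docetaxel replicate 3 (0.075).

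IARS2 (ENSG00000067704, chromosome 1, 220094102 to 220148041, plus strand), the mitochondrial isoleucine enzyme, was the member called lower. It was at 240.1, 238 and 221 CPM in control and 215, 205 and 206 CPM with docetaxel, with all docetaxel libraries below. The fitted log2 difference was -0.16 with SE 0.04 (adjusted p = 0.0088 by edgeR), and -0.08 with the offsets (0.24). Without control replicate 1 or docetaxel replicate 3 it was not called (edgeR adjusted p of 0.070 and 0.071). IARS1, its cytosolic partner in the multisynthetase complex, was at 326, 356 and 338 CPM in control and 329.5, 322 and 329.5 CPM with docetaxel, overlapping groups.

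The other 13 mitochondrial genes did not pass, with log2 fold changes from -0.15 for MARS2 to 0.32 for VARS2. Docetaxel replicate 1 was the highest of the 3 docetaxel libraries in 6 of these 13 and the lowest in 5. MARS2, the mitochondrial methionine enzyme, was at 20.6, 21.0 and 21.2 CPM in control and 22.7, 15.6 and 18.2 CPM with docetaxel, and NARS2, the asparagine enzyme, at 24.8, 25.7 and 25.3 CPM against 27.2, 22.8 and 21.8 CPM. Without docetaxel replicate 1, MARS2 was called lower, at a log2 fold change of -0.33 (edgeR adjusted p = 0.017). MARS2 and NARS2 were singled out after their values were seen. LARS2, PARS2, RARS2, EARS2 and YARS2, which charge leucine, proline, arginine, glutamate and tyrosine transfer RNA in mitochondria, had log2 fold changes of 0.11, 0.23, -0.09, -0.0094 and -0.04. Their edgeR adjusted p ran from 0.19 to 0.96.

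Over the whole family, docetaxel libraries lay all above the control libraries in 13 of 35 genes and all below in 1, against 17.0% and 15.0% of all genes tested. The summed cytosolic level was 4908, 4991 and 4990 CPM in control and 5091, 5274 and 5298 CPM with docetaxel. The summed mitochondrial level was 852, 843 and 835 CPM in control and 847, 862 and 851 CPM with docetaxel. The cytosolic sums were thus higher in every docetaxel library and the mitochondrial sums overlapped. With library-size scaling the cytosolic sums overlapped too, at 4963, 5105 and 5022 CPM in control and 5078, 5151 and 5226 CPM with docetaxel. Reads of cytosolic genes were 5.76, 5.92 and 5.98 times those of mitochondrial genes in control and 6.01, 6.12 and 6.23 times with docetaxel. These ranges lay close to each other without overlap. IARS2, called lower, was the largest part of the mitochondrial sum. It held 240.1, 238 and 221 CPM in control and 215, 205 and 206 CPM with docetaxel. Sums and ratios without IARS2 were not computed, so neither contrast can be read as a trait of all mitochondrial genes. The median log2 fold changes, 0.07 for the cytosolic and 0.08 for the mitochondrial genes, did not show such a contrast. With the offsets they were 0.08 and 0.03.

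Ratios of reads within a library were compared for 16 pairs, the 15 pairs of a cytosolic and a mitochondrial gene for the same amino acid and the pair of FARSA and FARSB. FARS2 was set against both subunits, and EARS2 and PARS2 entered no pair. In 6 pairs the docetaxel and control ratios were fully separated (p = 0.1 each in a two-sided exact permutation test, 0.267 after Benjamini-Hochberg adjustment over the 16), so none can pass at this size. Single genes separated upwards in 17.0% and downwards in 15.0% of the table, and the share for other pairs of genes was not computed. The ratio rose for WARS1 to WARS2, YARS1 to YARS2, IARS1 to IARS2 and FARSA to FARSB, by 0.22, 0.12, 0.10 and 0.19 on the log2 scale. For TARS1 to TARS2 and LARS1 to LARS2 the log2 difference was -0.18 and -0.15. In each of these 6 the gene that gained also had the higher transcript GC content, apart from IARS1 and IARS2, at 43.6% and 43.8%.

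**Figure D5:**
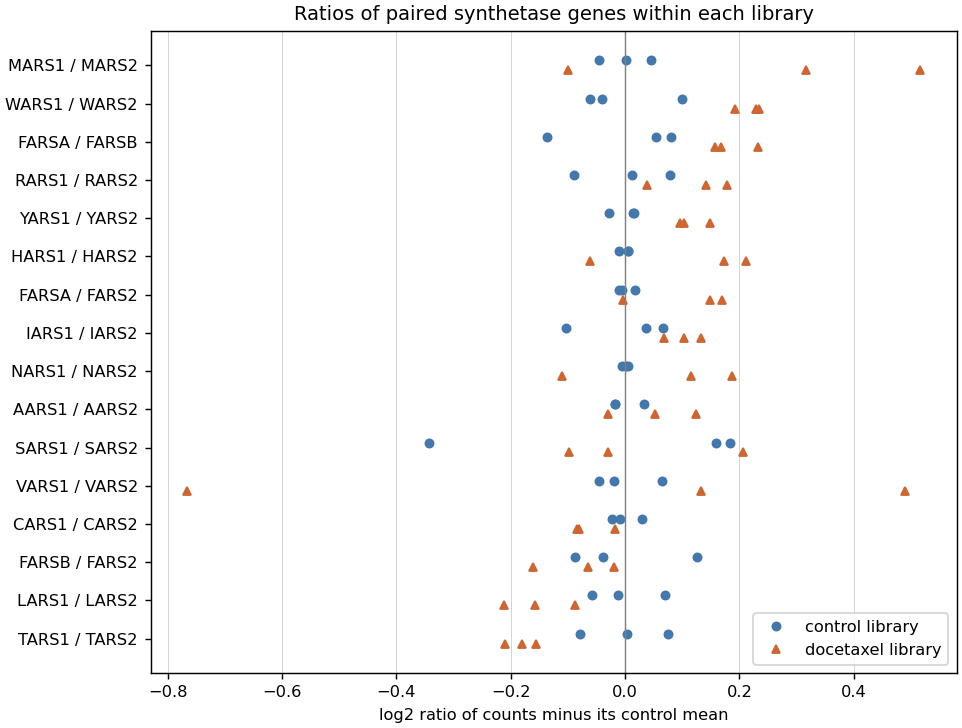
Log2 ratio of reads of 2 synthetase genes in each library, minus its mean over the 3 control libraries, for 16 pairs, with circles for control and triangles for docetaxel. In 4 pairs all triangles lie to the right of the circles, in 2 pairs all lie to the left, and in 10 the groups overlap.

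Genes that work with the synthetases were described from lists chosen for this purpose. AIMP1, AIMP2 and EEF1E1 are the scaffolds of the multisynthetase complex. EEF1E1 was at 47.3, 51.0 and 47.3 CPM in control and 43.3, 39.5 and 42.8 CPM with docetaxel, all below control, and fell by 0.215 on the log2 scale (edgeR adjusted p = 0.016), and AIMP1 and AIMP2 were at -0.07 and 0.09 (edgeR adjusted p of 0.43 and 0.38). EEF1E1 transcripts have 36.9% GC, and with the offsets its log2 fold change was -0.0085. Without control replicate 2 or docetaxel replicate 2 the call was lost (edgeR adjusted p of 0.10 and 0.084). Elongation factor 1 carries charged transfer RNA to the ribosome. EEF1A1, its most abundant subunit, was at 7581, 7733 and 7634 CPM in control and 7933, 7893 and 8228 CPM with docetaxel, a log2 fold change of 0.07 that edgeR did not call (adjusted p = 0.14) and that was called by limma-voom and with the offsets (0.0048, log2 fold change 0.13). EEF1B2 and EEF1D were at 0.00023 and 0.07. EEF1A2 had too few reads to test, and EEF1G had 0 reads in all 6 libraries, with 99.9% of its exon bases shared with another gene on the same strand in GENCODE. How reads in shared exons were assigned is not given in the sources used here, so this 0 sets no limit on its level.

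AARSD1, DTD1, DTD2 and ANKRD16 clear or prevent mischarged transfer RNA, and edgeR, DESeq2 and limma-voom called 0 of the 4, with 0 at an unadjusted p under 0.05. Their log2 fold changes were 0.14, -0.00070, -0.47 and 0.14. For GATB, GATC and QRSL1, the mitochondrial amidotransferase that completes glutaminyl-tRNA, and MTFMT, which formylates the initiator, the count was likewise 0 of 4 by the same 3 tools, and 0 at an unadjusted p under 0.05. These 4 were at 0.13, 0.02, -0.02 and 0.02. Of 9 mitochondrial translation factors (C12orf65, also on the list, was not matched) 1 rose and 0 fell (1 lower at an unadjusted p under 0.05, and 0 lower by DESeq2 and limma-voom). It was TUFM, the mitochondrial elongation factor Tu, at 1.09-fold (edgeR adjusted p = 0.043). Over all genes tested 9.14% were called higher and 7.82% lower. DESeq2 did not call TUFM (0.058), and its direction turned with the offsets (-0.0025). Without any 1 of the control libraries or docetaxel replicate 2 or 3 it was not called either (edgeR adjusted p from 0.057 to 0.275).

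Of 23 genes that trim, splice, extend or export transfer RNA, 6 rose and 2 fell, beside 9.14% and 7.82% of all genes tested. With the offsets 0 were called by edgeR, beside 2.31% higher and 1.88% lower over all genes. Of the 23, 3 then had an unadjusted p under 0.05, each higher. RPP25, a subunit of RNase P and MRP, rose 1.19-fold and TSEN34, a splicing endonuclease subunit, by 0.15 on the log2 scale. HSD17B10, a subunit of mitochondrial RNase P, rose 1.14-fold, though its groups overlapped. TRNT1, which adds the CCA end that every synthetase needs, fell by 0.32 on the log2 scale. Their edgeR adjusted p were 0.00078, 0.013, 0.014 and 0.0013. GC content was 62.8%, 63.7% and 57.6% in RPP25, TSEN34 and HSD17B10 and 37.5% in TRNT1. With library-size scaling 2 were higher, and TSEN34 was not called (edgeR adjusted p = 0.062). Leaving out 1 library gave 2 to 5 genes higher and 1 to 2 lower. It was 2 higher without docetaxel replicate 2 or 3, and 3 higher without control replicate 1 or 2. Only 1 gene was lower without any of these 4 libraries in turn. HSD17B10 was not called without control replicate 1 or 2 or docetaxel replicate 2, where edgeR gave adjusted p of 0.069, 0.11 and 0.18, and TSEN34 was not called without docetaxel replicate 3 (0.094).

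The amino acid response list holds the eIF2α kinases, eIF2α itself (EIF2S1), the cofactor PPP1R15B, ATF4 and related factors, and known ATF4 targets. Its members moved in both directions, and the counts below are not of ATF4 targets alone. Of 28 genes 5 rose and 7 fell, at a median log2 fold change of 0.03 (3 higher without control replicate 3). Over all genes tested 9.14% were called higher and 7.82% lower. SLC38A2, a neutral amino acid transporter induced by amino acid shortage, had the smallest p of the list. It was at 460.4, 477 and 446 CPM in control and 375, 336 and 337 CPM with docetaxel, and fell by 0.40 on the log2 scale (edgeR adjusted p = 1.47e-07). PHGDH, the first enzyme of serine synthesis, rose 1.17-fold. Its level was 1251, 1172 and 1227 CPM in control and 1427, 1404 and 1446 CPM with docetaxel, without overlap (adjusted p = 5.71e-05 by edgeR). CEBPB, a bZIP factor that pairs with ATF4, fell by 0.25, and PPP1R15B, the constitutive cofactor that dephosphorylates eIF2α, fell by 0.26 on the log2 scale. With the offsets these 4 kept their calls and directions, at log2 fold changes of -0.21, 0.18, -0.48 and -0.16. The list then had 2 genes higher and 6 lower, beside 2.31% and 1.88% of all genes in that fit. PPP1R15A, a cofactor related to PPP1R15B and added after its value was seen, rose by 0.425 on the log2 scale without the offsets (edgeR adjusted p = 0.0011). With them its log2 fold change was 0.28 and it was not called (edgeR adjusted p = 0.051). ATF4 itself, singled out after its value was seen, had a log2 fold change of 0.09 (edgeR adjusted p = 0.14) that turned to -0.03 with the offsets, and its groups overlapped at 626, 621 and 653 CPM in control and 645, 699.9 and 672 CPM with docetaxel. ASNS, the ATF4 target that makes asparagine, had only 41 to 84 reads per library and shares 44.6% of its exon bases with another gene on the same strand.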

How the data were processed

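The deposited table holds unnormalised counts of reads for each gene in 6 libraries. The submitters' processing notes name featureCounts 2.0.1 and GRCh38. For the aligner, annotation release, strand setting and treatment of multi-mapping reads, the details were not given in the sources used here. The deposited length column was used for the offsets.

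Columns were matched to samples by library name. Libraries of a group differed beyond sampling noise (Poisson dispersion index 4.92 to 12.7). Gene symbols were looked up by Ensembl identifier (35 of 35 synthetases matched), and coordinates, GC content of the longest transcript, principal transcripts and overlaps from GENCODE 29 (GRCh38).

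edgeR 4.0.16 in R 4.3.3 used filterByExpr, TMM scaling and robust quasi-likelihood fits on all 6 libraries, with Benjamini-Hochberg adjustment over 18040 genes. CPM are TMM-scaled, except sums of markers and sums given on library size alone. Each SE was derived from the p of the quasi-likelihood test. Offsets came from a loess fit (span 0.5) of each library's log2 CPM deviation on GC content and log2 length. Genes without a GC value, 1619 of those tested, were left out of that fit. Ratios were compared by exact permutation tests. Scripts were tested on simulated data.

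The members and lists were chosen with earlier results of these data known. Named with values were all called synthetases, partners of called genes, the 4 uncalled genes highest per length, and up to 4 genes per list with the smallest p. QARS1, EPRS1, RARS1, FARSB and IARS1, and the 5 mitochondrial genes given by log2 fold change only, were added after their values were seen.

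The alternatives tried were DESeq2 1.42.0, limma-voom (limma 3.58.1), scaling by RLE, by upper quartile or by library size, other low-count filters, the replicate block, the offsets, and leaving out each library. The other length and the alternatives for the lists were chosen after seeing the data.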

Additional observations from a re-analysis of the deposited data

How the results depend on the processing

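Cytosolic synthetases called higher numbered 4 to 8 over 15 of 16 alternatives and 2 with GC and length offsets together with the replicate block, where HARS1 and EPRS1 were called, and 0 were lower in every alternative. Leaving out 1 library gave 4 to 7 cytosolic and 0 to 2 mitochondrial genes higher, 0 to 2 mitochondrial genes lower, and medians of 0.0432 to 0.077 (cytosolic) and 0.000826 to 0.0889 (mitochondrial). Mitochondrial genes called higher were 1 with library-size scaling, 1 with no low-count filter and 0 with the offsets, with or without the block, where 0 were also lower. The cytosolic median was 0.0342 with library-size scaling, and the mitochondrial median 0.0413 with library-size scaling, 0.0342 with the offsets and 0.0312 with offsets and block. Over all genes 1649 were higher and 1410 lower. Library-size scaling gave 1096 and 1866, the offsets 380 and 309, the offsets with the block 270 and 214, and leaving out 1 library 990 to 1397 and 740 to 1841. The cause of these shifts was not tested.

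The replicate numbers are not said to mark a shared culture or day, and same-numbered libraries deviated together with r of 0.00804, 0.00704 and 0.0157, though each library correlated best with its own number. With the replicate block 1283 genes were higher and 1106 lower, and 6 cytosolic and 1 mitochondrial synthetases were higher. Among genes called in either fit, the direction turned with the offsets, and with offsets and block, for VARS1 (-0.00925 and -0.00915), TUFM (-0.00247 and -0.00278), TSEN34 (-0.0492 in both), TSEN54 (-0.0298 and -0.0294), EIF2AK2 (0.0112 and 0.0109), EIF2S1 (0.173 in both), SLC3A2 (-0.0279 in both) and SLC1A5 (-0.0208 and -0.0205), and with the offsets for SLC7A5 (-0.112). VARS2 had no value with a filter of 1 CPM in 3 libraries, and no adjusted p from DESeq2. SARS2 and VARS2, with few reads, allow no statement on changes as small as those of the other genes.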
